A study of Mus musculus with 13 samples.

Results

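The suppressors of cytokine signalling (SOCS) and their relative CIS form a family of 8 genes in the mouse, Socs1 to Socs7 and Cish, and all 8 were found by symbol among the 23951 genes of the deposited tables. Transcripts were measured by RNA sequencing of whole mammary glands. At day 2 of involution, the regression that follows the end of suckling, there were 4 libraries of females with a conditional knockout of the tyrosine kinase Jak1 (KO: M43196, M43767, M44176 and M44440, each M with the number of the mouse) and 3 of wildtype controls (Con: M44448, M43768 and M43914). At day 7 of lactation there were 3 KO libraries (M44174, M42734 and M43767) and 3 Con libraries (M42186, M43768 and M44175). Strain, age and the promoter that drives the recombinase are not named in the labels. M43768 and M43767 stand at both stages in the titles, and whether these animals were sampled at both was not settled, since the labels' protocol counts 7 knockout and 6 control mice while the titles hold 11 numbers.

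Janus kinases bound to cytokine receptors phosphorylate STAT transcription factors, which enter the nucleus and switch on target genes. SOCS genes are among those targets, and their proteins close a negative feedback loop: an SH2 domain binds phosphorylated receptors or kinases, and a SOCS box recruits a ubiquitin ligase. In the mammary gland prolactin acts through JAK2 and STAT5 during lactation, whereas cytokines of the interleukin 6 class act through gp130, JAK1 and STAT3 at the onset of involution. SOCS3 is the classical brake on gp130 and SOCS1 that on interferon receptors, while CIS and SOCS2 are classical STAT5 targets that act on prolactin and growth hormone receptors.

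STAT dimers bind the palindrome TTCNNNGAA, read alike on both strands. Of the 8 members, 4 (Cish, Socs1, Socs3 and Socs4) had a promoter in the RefSeq table used here (build GRCm38.p6, 250 bases before to 50 bases after an annotated start). The 2 promoters that hold the palindrome are printed 5′ to 3′ in the direction of the gene, because they belong to the members with the highest involution levels; capitals mark the matches.
Cish: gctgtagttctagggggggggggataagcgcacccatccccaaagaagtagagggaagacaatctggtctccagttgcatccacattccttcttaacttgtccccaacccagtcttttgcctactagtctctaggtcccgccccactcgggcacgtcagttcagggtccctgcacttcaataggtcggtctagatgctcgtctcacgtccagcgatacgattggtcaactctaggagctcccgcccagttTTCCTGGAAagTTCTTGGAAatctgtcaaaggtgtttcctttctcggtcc
Socs3: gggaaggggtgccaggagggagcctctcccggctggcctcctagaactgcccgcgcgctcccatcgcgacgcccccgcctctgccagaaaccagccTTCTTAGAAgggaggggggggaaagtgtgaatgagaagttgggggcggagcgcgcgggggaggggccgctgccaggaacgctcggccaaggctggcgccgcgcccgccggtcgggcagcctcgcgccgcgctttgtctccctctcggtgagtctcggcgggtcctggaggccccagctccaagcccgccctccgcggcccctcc
The Cish window is chr9:107296409-107296708 on the plus strand, and its matches TTCCTGGAA and TTCTTGGAA lie side by side at bases 1 to 9 and 12 to 20 counted from the annotated start. The Socs3 window is chr11:117969317-117969616 on the minus strand, with 1 match, TTCTTAGAA, at bases -154 to -146. The windows of Socs1 and Socs4 hold none. At least 1 match occurs in 8.30% of all 32851 promoters listed, so these are descriptions of sequence, and binding was not measured.

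The target of the deletion, Jak1, stood at 23.0, 22.2, 26.3 and 17.3 FPKM (fragments per kilobase of transcript, scaled to the mapped fragments of the library) in the KO glands at involution and at 24.3, 24.0 and 24.6 FPKM in the Con glands. At lactation it stood at 9.51, 10.2 and 11.2 FPKM in KO glands and at 14.2, 14.0 and 6.18 FPKM in Con glands. A whole gland may also hold cells without the deletion, and FPKM over a whole gene includes any transcript missing just the deleted stretch, so this does not check the labels. All 10 luminal epithelial markers were in the tables, and their summed level was 1569 to 2634 FPKM in KO and 1668 to 2243 FPKM in Con glands at involution, and 537 to 618 FPKM in KO and 624 to 687 FPKM in Con glands at lactation. Relative depth within a table, estimated from the steps in which low FPKM rise, ran from 0.485 (KO M43196) to 1.50 (KO M44440) at involution and from 0.723 (Con M44175) to 1.29 (KO M44174) at lactation. Con M44175 stood apart at lactation, with an FPKM total of 871630, where the other lactation libraries had 312976 to 421592. Con M43768 stood apart there in another way. Its 10 T and NK cell markers summed to 39.2 FPKM, against 2.07 to 8.25 FPKM in the other lactation libraries.

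Socs3 had the largest KO difference of the 8 members at involution, although it did not pass the test across all genes. It stood at 8.40 (M43196), 11.3 (M43767), 8.45 (M44176) and 9.71 FPKM (M44440) in the KO glands, against 19.0 (M44448), 23.4 (M43768) and 28.0 FPKM (M43914) in the Con glands. The highest KO gland was well below the lowest Con gland, and the 4 KO glands lay close together. The means were 9.47 ± 1.37 FPKM in KO (SD, n = 4) and 23.4 ± 4.51 FPKM in Con glands (SD, n = 3), a ratio of 0.404. In the limma fit over all 12509 genes tested, the log2 difference of KO minus Con was -1.19 ± 0.17 (SE), with a 95% interval of -1.59 to -0.79. Its unadjusted p was 1.31e-04, rank 18 of all genes, and its Benjamini-Hochberg adjusted p of 0.0898 missed the threshold of 0.05. The adjusted p ran from 0.0610 to 0.536 over 14 alternative settings, the last without Con M43768, and the difference kept its sign and a size of -1.07 to -1.31. Leaving out a Con gland also drops genes at 0 in all KO glands from the fit, which bears on the adjusted p. In a whole gland, fewer cells that express a gene and less transcript per cell cannot be told apart.

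**Figure D1:**
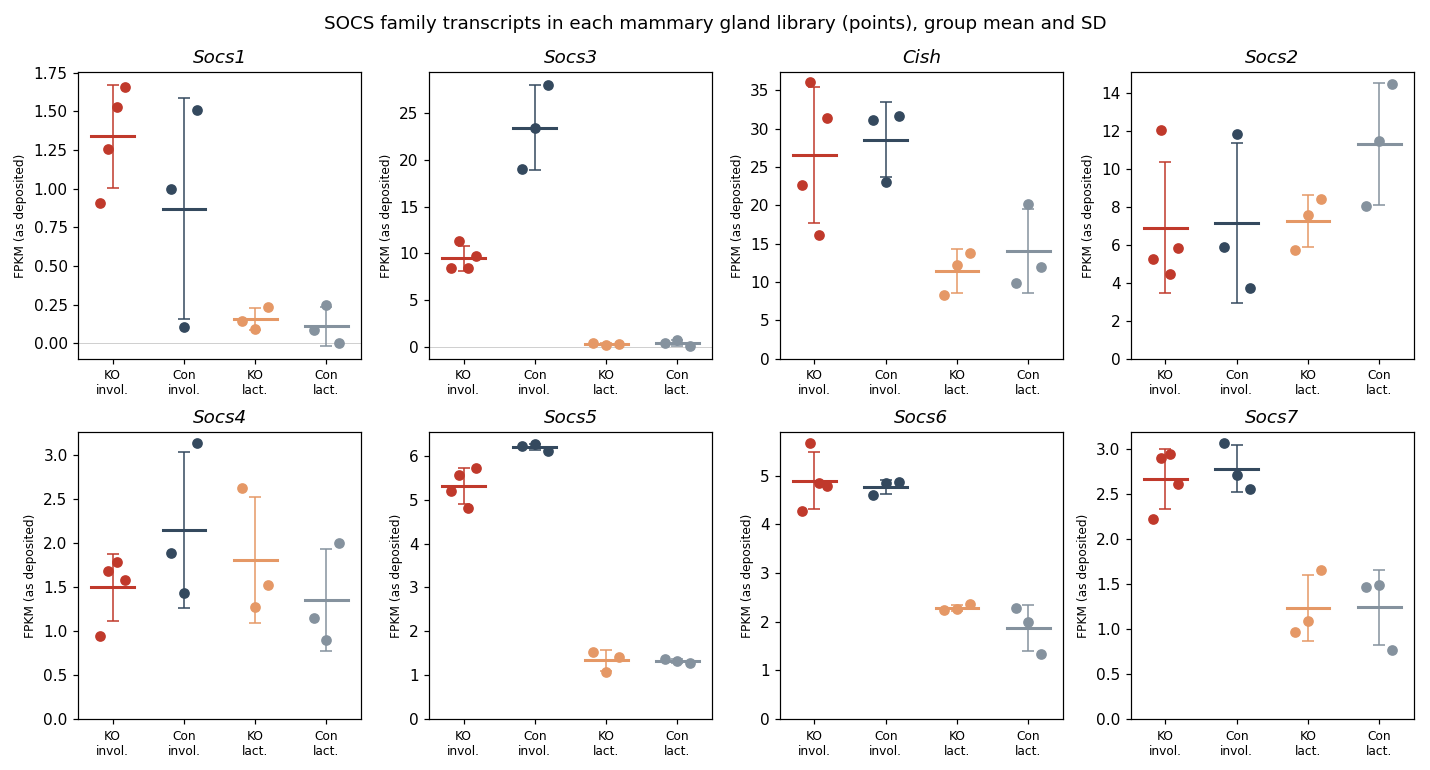
FPKM of the 8 family members in each library (points), with the group mean (bar) and SD (whiskers), for KO and Con glands at involution and at lactation; each panel has its own linear axis. Socs3 shows 4 KO points between 8.40 and 11.3 FPKM below 3 Con points between 19.0 and 28.0 FPKM at involution, and all 6 lactation points under 1 FPKM.

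Socs1, whose protein like SOCS3 inhibits the kinases directly, was scarce and did not share this pattern. It stood at 0.907, 1.26, 1.53 and 1.66 FPKM in the KO glands at involution (M43196, M43767, M44176, M44440) and at 1.00, 0.105 and 1.51 FPKM in the Con glands (M44448, M43768, M43914). The groups overlapped, and Con M43768 was far below every other gland of that stage. These values rest on few fragments: multiplied by relative depth they are whole multiples of a smallest step within 0.0886 of a step, namely 6, 16, 25 and 34 steps in the KO glands and 16, 1 and 21 steps in the Con glands. If a step is 1 fragment, the value of Con M43768 rests on a single one. The search for the step starts from the smallest value above 0, however, which is that of this gland. Its 1 step is thus set by the search and is no separate evidence. The log2 difference was 0.40 ± 0.28 (95% interval -0.25 to 1.05, limma adjusted p = 0.940). It was 1.00 with a pseudocount of 0.1, 0.65 with array weights, 0.64 without Con M43914 and 0.06 without Con M43768.

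The 2 classical STAT5 targets, Cish and Socs2, had similar mean levels in KO and Con glands at involution. Cish, the most abundant member, stood at 22.7, 36.0, 16.1 and 31.4 FPKM in KO glands (M43196, M43767, M44176, M44440) and at 31.1, 23.0 and 31.6 FPKM in Con glands (M44448, M43768, M43914). The KO glands spread over the whole range of the Con glands and beyond it on both sides. Its log2 difference was -0.13 ± 0.28 with a 95% interval of -0.78 to 0.53 (limma adjusted p = 0.998), and it turned positive without KO M44176 (0.08) and with array weights (0.06). Socs2 stood at 5.25, 12.0, 4.48 and 5.85 FPKM in KO glands and at 5.86, 11.8 and 3.74 FPKM in Con glands, in the same order of libraries. The groups overlapped, and 1 gland of each genotype stood high, KO M43767 and Con M43768, the 2 numbers that also occur at lactation. The log2 difference of Socs2 was 0.02 ± 0.40 (95% interval -0.90 to 0.93), and its sign turned without Con M44448 (-0.03) or M43914 (-0.32), without KO M43767 (-0.26), with FPKM as deposited (-0.01) and with array weights (-0.15).

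Socs4 to Socs7, the members with long amino-terminal regions whose SH2 domains act mostly on receptor tyrosine kinase and insulin pathways, were expressed at a few FPKM each. Socs5 stood at 5.20, 5.56, 4.80 and 5.72 FPKM in KO glands at involution (M43196, M43767, M44176, M44440) and at 6.23, 6.26 and 6.11 FPKM in Con glands (M44448, M43768, M43914). The groups did not overlap, but the gap between KO M44440 and Con M43914 was small. Its log2 difference was -0.17 ± 0.12 (95% interval -0.45 to 0.11, limma adjusted p = 0.940). Socs4 ranged from 0.944 to 1.79 FPKM in KO and from 1.43 to 3.14 FPKM in Con glands, with a log2 difference of -0.30 ± 0.22. This was -0.09 without Con M43914, -0.18 without KO M43196, -0.13 with array weights and -0.47 without Con M43768. Socs6 ranged from 4.29 to 5.68 FPKM in KO and from 4.60 to 4.88 FPKM in Con glands, with a log2 difference of 0.05 ± 0.13. Socs7 ranged from 2.23 to 2.95 FPKM in KO and from 2.56 to 3.08 FPKM in Con glands, with a log2 difference of -0.03 ± 0.14. The signs of the last 2 turned without 1 library: Socs6 without KO M43767 (-0.01), and Socs7 without Con M44448 (0.04) or KO M43196 (0.03). The interval for Socs6 reached from -0.26 to 0.35 and that for Socs7 from -0.35 to 0.30 on the log2 scale.

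Of the 8 members tested at involution, none passed with limma after adjustment, where 0.0719% of all genes tested did (9 genes, of which 5 are listed at 0 in every library of 1 group), and 1, Socs3, had an unadjusted p under 0.05, where 6.84% of all genes did. Groups did not overlap in 2 members, Socs3 and Socs5, both lower in KO, against 7.09% of all genes and 4.42% in that direction. Differences were negative in 5 of the 8, against 48.2% of all genes. The median log2 difference of the 8 was -0.08, beside 0.01 over all genes tested. The estimates ran from -1.19 (Socs3) to 0.40 (Socs1). The interval of Socs3 was the only one that did not reach 0, and differences between members were not tested.

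**Figure D2:**
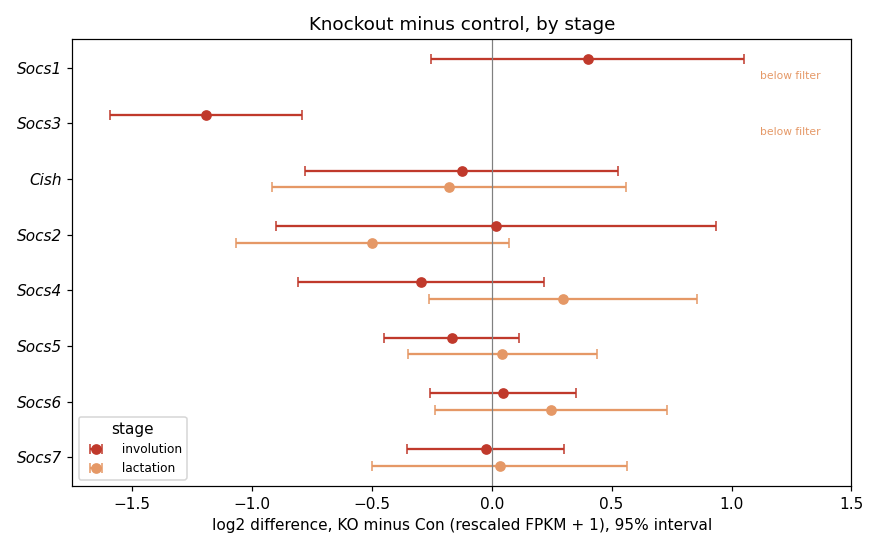
Log2 difference of KO minus Con glands for each member on the scale of log2(rescaled FPKM + 1), at involution and at lactation, with 95% intervals from limma (not adjusted for the number of genes). The interval of Socs3 at involution, -1.59 to -0.79, is the one that does not reach 0; Socs1 and Socs3 were below the expression filter at lactation.

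At day 7 of lactation Socs3 was barely present in either genotype. It stood at 0.464, 0.227 and 0.383 FPKM in KO glands (M44174, M42734, M43767) and at 0.481, 0.795 and 0.155 FPKM in Con glands (M42186, M43768, M44175). All 6 values were whole multiples of a smallest step within 0.00265 of a step, 16, 6 and 12 steps in KO and 14, 16 and 3 steps in Con glands. The groups overlapped, and this level was under the filter of at least 1 FPKM in at least 3 libraries. Without the filter the log2 difference was -0.09 ± 0.18 (limma adjusted p = 0.993). Socs1 was lower still, at 0.144, 0.0940 and 0.238 FPKM in KO glands and at 0.0852, 0.247 and 0 FPKM in Con glands, in the same order. These are 2, 1 and 3 steps in KO and 1, 2 and 0 steps in Con glands, so no ratio is given. For Con M44175, listed at 0, 3 steps would correspond to 0.384 FPKM; a limit of this kind covers counting error only.

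Cish and Socs2 led the family at lactation. Cish stood at 8.33, 12.2 and 13.9 FPKM in KO glands (M44174, M42734, M43767) and at 9.95, 20.2 and 12.0 FPKM in Con glands (M42186, M43768, M44175). The log2 difference was -0.18 ± 0.32 (95% interval -0.92 to 0.56, limma adjusted p = 0.998), and it turned positive without Con M43768 (0.12) or KO M44174 (0.02) and with scaling to the total outside milk proteins and short RNA entries (0.01), and was -0.52 with array weights. Socs2 stood at 5.73, 7.55 and 8.42 FPKM in KO glands and at 8.03, 11.5 and 14.4 FPKM in Con glands, in the same order. Only KO M43767 exceeded the lowest Con gland, M42186. The log2 difference of Socs2 was -0.50 ± 0.25 (95% interval -1.07 to 0.07, unadjusted p = 0.0774, limma adjusted p = 0.998), and it stayed negative over 12 alternatives, from -0.66 to -0.31.

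The other 4 members were at 0.764 to 2.62 FPKM in every lactation gland. Socs4 ranged from 1.27 to 2.62 FPKM in KO and from 0.899 to 2.00 FPKM in Con glands (log2 difference 0.30 ± 0.24). Socs5 ranged from 1.07 to 1.52 FPKM in KO and from 1.27 to 1.36 FPKM in Con glands (0.04 ± 0.17). Socs6 ranged from 2.24 to 2.35 FPKM in KO and from 1.34 to 2.27 FPKM in Con glands (0.25 ± 0.21). Socs7 ranged from 0.966 to 1.65 FPKM in KO and from 0.764 to 1.49 FPKM in Con glands (0.03 ± 0.23). The sign of Socs5 turned with quantile normalization (-0.02) and without KO M44174 (-0.01), and that of Socs7 with quantile normalization (-0.03), array weights (-0.07) and without Con M44175 (-0.15) or KO M43767 (-0.11). Of the 6 members tested, 0 passed with limma and 0 had an unadjusted p under 0.05, where 0.0105% and 2.38% of all 9560 genes tested did. No member had groups that did not overlap, against 6.06% of all genes. Single libraries moved Socs4 to 0.17 without Con M43768 and 0.10 without KO M44174, and Socs6 to 0.38 without Con M42186. Without Con M44175, the library with the high FPKM total, the log2 differences were -0.37 for Socs2, -0.31 for Cish, 0.45 for Socs4, 8e-04 for Socs5, 0.07 for Socs6 and -0.15 for Socs7.

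Whether the KO effect differed with stage was tested by fitting the 13 libraries together, as the effect at involution minus that at lactation. Of the 6 members that passed the filter in both tables, 0 passed with limma and 0 had an unadjusted p under 0.05, where 0.0423% and 3.02% of all 9464 genes did. The values ran from -0.60 ± 0.33 (Socs4) to 0.52 ± 0.50 (Socs2), with adjusted p of 0.999 each. Single libraries moved both: Socs2 was 0.18 without Con M43914, 0.24 without KO M43767 and 0.90 without Con M43768 at involution, and Socs4 was -0.39 without Con M43914 and -0.90 with a pseudocount of 0.1. Cish, at 0.05 ± 0.44, was 0.59 with array weights and 0.62 with the mouse number as replicate block. Socs3 could be fitted only without the filter: the difference of effects was -1.10 ± 0.27 (unadjusted p = 0.00204, limma adjusted p = 0.757). With a pseudocount of 0.1 and no filter, a setting added after the values were seen, it was -1.12 ± 0.56 (unadjusted p = 0.0707, adjusted p = 0.989). On the lactation side these values of Socs3 rest on 3 to 16 steps per library.

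Each stage has its own deposited table, and these may have been scaled separately, so the stages are set side by side with no test. The median gene had an involution level 2.58 times its lactation level in KO glands and 2.43 times in Con glands (ratio of group means, over the 9464 genes that passed the filter in both tables), so ratios near these values do not set a member apart from the rest. Socs3 averaged 9.47 FPKM at involution against 0.358 FPKM at lactation in KO glands, a ratio of 26.4. In Con glands it averaged 23.4 FPKM at involution against 0.477 FPKM at lactation, a ratio of 49.2. Socs3 is not among the 9464 genes, since it misses the filter at lactation, and is not ranked against them. Every involution gland of either genotype was above every lactation gland.

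Of the 6 members among the 9464 genes, Socs5 was above the median gene and the others were near it or below it. Cish had ratios of involution over lactation of 2.32 in KO and 2.04 in Con glands, 0.900 and 0.839 of the median gene's. Socs6 (2.15 in KO, 2.55 in Con) and Socs7 (2.16 in KO, 2.24 in Con) were also close to it. Socs5 had ratios of 3.98 in KO and 4.71 in Con glands. Socs2 was below it, with 0.955 in KO and 0.631 in Con glands, as was Socs4 with 0.828 in KO and 1.59 in Con glands, and the stages overlapped for both genes in both genotypes. Socs1 ratios rest on at most 3 steps per lactation gland and are not given.

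Ratios within a library do not depend on how a table was scaled. Socs3 stood at 0.309 to 0.524 of the Cish level in KO glands at involution and at 0.609 to 1.02 of it in Con glands, with no overlap. At lactation the ratio of Socs3 to Cish was 0.0186 to 0.0557 in KO and 0.0129 to 0.0483 in Con glands, with overlap. Socs3 made up 14.8% to 18.8% of the summed FPKM of the family in KO glands and 26.1% to 34.3% in Con glands at involution, and 0.882% to 2.11% in KO and 0.485% to 2.07% in Con glands at lactation. Socs2 made up 9.24% to 15.7% of the sum in KO and 4.59% to 16.1% in Con glands at involution, and 26.0% to 29.3% in KO and 29.9% to 45.2% in Con glands at lactation. Cish kept between 31.3% and 52.6% of the sum in all 13 libraries. In rank, Socs3 was above 62.5% to 70.3% of the genes detected in KO glands and above 79.9% to 84.4% of those in Con glands at involution, and above 17.7% to 26.9% in KO and 13.1% to 32.9% in Con glands at lactation.

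**Figure D3:**
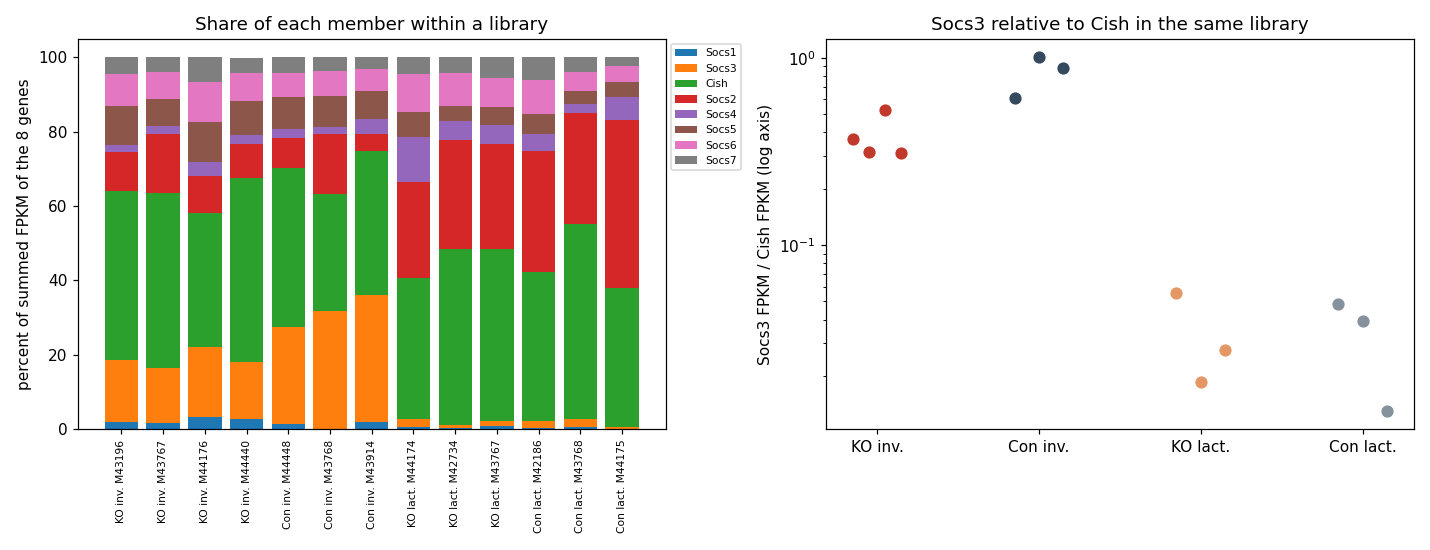
Left, share of each member in the summed FPKM of the 8 genes, 1 bar per library, in percent. Right, Socs3 FPKM divided by Cish FPKM in the same library on a log axis, where KO glands (0.309 to 0.524) lie below Con glands (0.609 to 1.02) at involution and both genotypes lie under 0.06 at lactation.

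By mean level, the order in KO glands at involution was Cish (26.6 FPKM), Socs3 (9.47), Socs2 (6.90), Socs5 (5.32), Socs6 (4.90), Socs7 (2.67), Socs4 (1.50) and Socs1 (1.34), where Socs3 overlapped with Socs2, Socs2 with Socs5, Socs5 with Socs6, and Socs4 with Socs1. In Con glands at involution it was Cish (28.6 FPKM), Socs3 (23.4), Socs2 (7.14), Socs5 (6.20), Socs6 (4.78), Socs7 (2.79), Socs4 (2.15) and Socs1 (0.872), where Cish overlapped with Socs3, Socs2 with Socs5, Socs7 with Socs4, and Socs4 with Socs1. So Socs3 was set off from Cish in KO glands and from Socs2 in Con glands. At lactation Cish and Socs2 held the first 2 places and Socs3 and Socs1 the last 2 in both genotypes. Replicate spread also differed between members. Socs5 and Socs6 had coefficients of variation of 7.69% and 11.8% in KO and of 1.27% and 3.11% in Con glands at involution, whereas those of Socs2 were 50.2% in KO and 58.7% in Con glands.

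Around the family, 7 lists of JAK-STAT genes were counted in the same fits. These lists were written with earlier results of these data known, so their direction is no independent evidence. Over all genes tested, 6.84% had an unadjusted p under 0.05 at involution and 2.38% at lactation. Of 10 kinases and STATs tested at involution, 0 passed and 1 had an unadjusted p under 0.05; 8 were negative, with a median log2 difference of -0.13. Stat3, the factor upstream of Socs3, had the smallest p of them, at 62.8 ± 4.54 FPKM in KO (SD, n = 4) and 97.0 ± 13.9 FPKM in Con glands (SD, n = 3), with groups apart (log2 difference -0.59 ± 0.17, limma adjusted p = 0.480). At lactation Stat3 stood at 8.59 ± 0.959 FPKM in KO and 8.97 ± 2.80 FPKM in Con glands.

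Of 20 receptors on which SOCS proteins act, 0 passed at involution and 4 had an unadjusted p under 0.05, where 6.84% of all genes did. Their differences were 9 negative and 11 positive, with a median of 0.03. Osmr, the oncostatin M receptor that pairs with gp130, stood at 10.0 to 18.3 FPKM in KO and 26.0 to 31.6 FPKM in Con glands (limma adjusted p = 0.289). Il4ra, an interleukin 4 receptor chain, stood at 12.1 to 15.8 FPKM in KO and 18.1 to 26.3 FPKM in Con glands (adjusted p = 0.452). Il11ra1, an interleukin 11 receptor chain, was the only receptor tested whose KO glands lay wholly above the Con glands, with 24.2 to 35.7 FPKM in KO and 17.7 to 20.7 FPKM in Con glands (adjusted p = 0.417). Il6st, which encodes gp130 and was chosen after its values were seen, averaged 26.0 ± 4.02 FPKM in KO and 24.9 ± 5.15 FPKM in Con glands. The prolactin receptor gene Prlr, chosen likewise, averaged 5.95 ± 0.446 FPKM in KO and 8.50 ± 1.08 FPKM in Con glands (adjusted p = 0.546).

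Among 15 other inhibitors of the pathway, Ptpn2 had the smallest p. Ptpn2, a phosphatase that removes phosphate from JAK1, JAK3 and STATs, stood at 10.3 to 15.1 FPKM in KO and 19.4 to 35.6 FPKM in Con glands at involution (log2 difference -0.99 ± 0.22, unadjusted p = 0.00180, limma adjusted p = 0.296). At lactation it averaged 6.27 ± 0.299 FPKM in KO and 7.56 ± 1.01 FPKM in Con glands. Pdlim2, an adaptor that promotes STAT degradation, went the other way, with 7.03 to 12.3 FPKM in KO and 3.12 to 6.54 FPKM in Con glands (adjusted p = 0.482). Ptpn1, the phosphatase PTP1B, stood at 9.20 to 14.9 FPKM in KO and 12.8 to 17.0 FPKM in Con glands (adjusted p = 0.871). None of the 15 passed, 2 had an unadjusted p under 0.05, and 8 differences were negative and 7 positive (median -0.04). Of 8 genes for the ubiquitin ligase that the SOCS box recruits, none passed either, and 0 had an unadjusted p under 0.05 (3 negative, median 0.08, smallest adjusted p 0.940). Its subunit elongin B (Tceb2) averaged 480 ± 110 FPKM in KO and 429 ± 51.7 FPKM in Con glands.

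Genes known as STAT3 targets other than Socs3 mostly had negative differences. Stat3 and Il4ra, counted above among the STATs and the receptors, are in this list too, so the lists are not separate. Of 24 tested at involution, 2 passed with limma, both lower in KO (0.0560% of all genes passed in that direction), 22 differences were negative, and the median was -0.71 beside 0.01 over all genes. The 2 were Orm2, an orosomucoid of the acute phase, and Spp1, osteopontin. Orm2 averaged 46.9 ± 10.3 FPKM in KO and 470 ± 252 FPKM in Con glands (log2 difference -3.17 ± 0.34, adjusted p = 0.0245). Spp1 averaged 263 ± 220 FPKM in KO and 8896 ± 3493 FPKM in Con glands (log2 difference -5.29 ± 0.61, adjusted p = 0.0363). Both calls rest on the setting, while the sign held in all 14 alternatives: Orm2 missed the threshold in 7, with adjusted p of 0.0553 without Con M44448, 0.182 without Con M43768, 0.0934 without KO M43196, 0.0782 without KO M43767, 0.0703 without KO M44440, 0.0864 with no filter and 0.0852 without genes listed at 0 in a whole group. Spp1 missed it in 8, with adjusted p of 0.0757 to 0.189 when any library but KO M43196 was left out, 0.156 with no filter and 0.0952 without genes listed at 0 in a whole group. Where a Con gland was left out, genes at 0 in all KO glands also missed the filter, which bears on these adjusted p. For Spp1 the difference of effects between stages was -6.63 ± 0.81 (adjusted p = 0.00483) and passed in all 21 alternatives. Saa3, a serum amyloid, was just outside (adjusted p = 0.0514). In 14 of the 24 the KO glands lay wholly below the Con glands, against 4.42% of all genes; the list and Socs3 were read from the same libraries. At lactation 0 of the 24 passed, 1 had an unadjusted p under 0.05 (Spp1, higher in KO), and 10 differences were negative, where 48.8% of all genes were (median 0.03).

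Of 11 STAT5 targets other than Cish and Socs2 tested at involution, 7 had negative differences, with a median of -0.03. In 3 the groups did not overlap, against 7.09% of all genes: Ccnd1, higher in KO, and Akt1 and Csn1s2a, lower in KO. The casein gene Csn1s2a passed the test, but on exact zeros: it is listed at 0 in all 4 KO glands and at 20350 to 41980 FPKM in the Con glands. It is also listed at 0 in all 6 lactation libraries, as are Csn1s1, Csn2, Csn3 and Wap, the genes of the main milk proteins. A 0 in these tables can therefore be a missing estimate, and the call of Csn1s2a is not read as a lower level. Its place among the 7 negative differences and the 3 genes with groups apart is not read so either. Ccnd1, cyclin D1, stood at 7.60 to 14.5 FPKM in KO and 2.95 to 3.84 FPKM in Con glands (adjusted p = 0.0898). At lactation 0 of 8 passed and 1 had an unadjusted p under 0.05, Igf1, a growth factor gene, which stood at 1.37 to 4.53 FPKM in KO and 5.28 to 11.6 FPKM in Con glands (unadjusted p = 0.00964, adjusted p = 0.998). Of 18 interferon targets tested at involution, 0 passed and 1 had an unadjusted p under 0.05, with 11 positive differences (median 0.20). Irf9 had the smallest p, at 18.1 to 21.6 FPKM in KO and 24.3 to 29.3 FPKM in Con glands (adjusted p = 0.570).

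**Figure D4:**
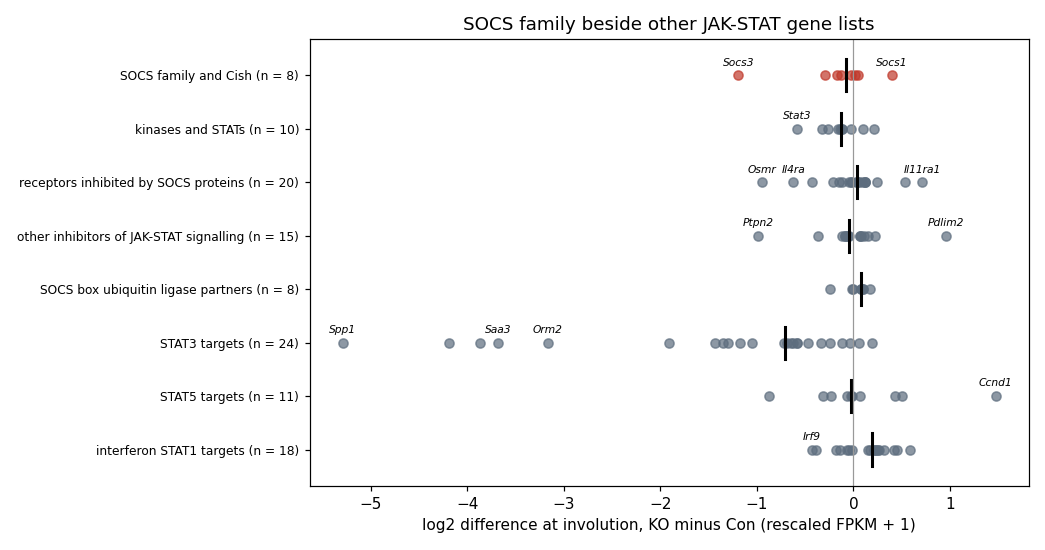
Log2 difference of KO minus Con glands at involution for the family (top row) and 7 lists of JAK-STAT genes, 1 point per gene tested and a black bar at each median. Socs3 (-1.19), Osmr (-0.95) and Ptpn2 (-0.99) lie on the negative side of rows whose medians are near 0, and 1 gene listed at 0 in all KO glands (Csn1s2a) lies beyond the axis.

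Of 7729 genes with at least 1 FPKM in all 13 libraries, those with the pattern most like Socs3 over the libraries, after each table was centred, were 4933426M11Rik (Susd6 in RefSeq, Pearson coefficient 0.934), Bzw2 (0.928), Cnnm2 (0.915), Ptpn2 (0.909) and Cyb561d1 (0.906). Centred on each group instead, so that the difference of KO and Con is removed, the coefficients were 0.543 (Cnnm2) to 0.787 (4933426M11Rik). At involution Bzw2 averaged 65.1 FPKM in KO and 128 FPKM in Con glands, Cnnm2 8.93 FPKM in KO and 23.3 FPKM in Con glands, and 4933426M11Rik 23.8 FPKM in KO and 55.9 FPKM in Con glands. The genes most like Cish were Ezh1 (0.878), Zbtb40 (0.847), Traf6 (0.822), Dgka (0.807) and Vps37a (0.794), and those most like Socs2 were Elac1 (0.893), Mtcp1 (0.854), Anapc15 (0.834), 1810013L24Rik (0.828) and Poli (0.825). Like Socs2, Elac1 was highest at involution in KO M43767 (4.32 FPKM against 2.82 to 3.25 in the other KO glands) and in Con M43768 (4.04 FPKM against 2.85 and 3.12). The coefficients were ranked over all these genes and are a description, and the libraries share depth and tissue makeup.

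Markers of adipocytes, fibroblasts, basal epithelium and macrophages were mostly higher in KO glands on average at both stages, though none passed the test. At involution the differences were positive in 11 of 11 adipocyte markers (median 0.64, 0 with an unadjusted p under 0.05). They were also positive in 8 of 8 fibroblast markers (median 0.79, 3 under 0.05) and 8 of 9 basal epithelial markers (median 0.40, 0 under 0.05). Endothelial markers were split there, with 5 of 8 positive (median 0.15, 1 under 0.05). Macrophage markers were positive in 9 of 11 (median 0.33, 1 under 0.05 in each direction). B and plasma cell markers were positive in 1 of 5 (median -0.51, 1 under 0.05). Over all genes tested at involution, 48.2% of differences were negative and 6.84% had an unadjusted p under 0.05. At lactation the differences were positive in 11 of 11 adipocyte markers (median 0.77, 5 under 0.05) and 7 of 7 fibroblast markers (median 0.73, 1 under 0.05). So were those of 7 of 7 endothelial markers (median 0.61, 4 under 0.05) and 7 of 9 basal epithelial markers (median 0.21, 0 under 0.05). Macrophage markers were positive in 4 of 6 (median 0.34, 0 under 0.05) and B and plasma cell markers in 1 of 3 (median -0.13, 0 under 0.05). Over all genes tested at lactation, 48.8% of differences were negative and 2.38% had an unadjusted p under 0.05. Luminal markers were split at both stages (3 of 10 positive at involution, 4 of 9 at lactation). At involution the summed level of 11 macrophage markers was 279 to 784 FPKM in KO and 316 to 442 FPKM in Con glands, and that of 9 neutrophil markers 35.4 to 471 FPKM in KO and 56.8 to 238 FPKM in Con glands. The 11 adipocyte markers summed to 4982 to 19220 FPKM in KO and 4471 to 9953 FPKM in Con glands, the 8 fibroblast markers to 327 to 874 FPKM in KO and 200 to 464 FPKM in Con glands, and the 8 endothelial markers to 104 to 198 FPKM in KO and 113 to 159 FPKM in Con glands. Basal epithelial markers (9) were the one list whose sums did not overlap, 477 to 559 FPKM in KO and 252 to 428 FPKM in Con glands. For 10 T and NK cell markers the sums were 8.34 to 12.7 FPKM in KO and 11.1 to 16.2 FPKM in Con glands, and for 8 B and plasma cell markers 79.4 to 246 FPKM in KO and 122 to 331 FPKM in Con glands. Skeletal muscle (6 markers) and skin keratinocyte markers (5) differed most between single glands, up to 4464 (M44176) and 138 FPKM (M43767) in KO and up to 1154 (M44448) and 3.64 FPKM (M43914) in Con glands. At lactation the muscle sum was 883 FPKM in KO M44174, 0.80 and 0.85 FPKM in the other KO glands, and 1.13 to 206 FPKM in Con glands. KO M44176 and KO M44174 also had the lowest Cish level of their stage, 16.1 and 8.33 FPKM, whereas Con M44448 had 31.1 FPKM. No list had a marker at 0 in all libraries. At lactation the luminal sums given above and the endothelial sums, 33.2 to 48.8 FPKM in KO and 21.9 to 27.0 FPKM in Con glands, did not overlap. The largest part of the luminal sums was Elf5, whose groups overlapped (292.6 to 357.9 FPKM in KO and 354.6 to 404.3 FPKM in Con glands). The part of these cells in the levels of the family was not tested.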

How the data were processed

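The authors deposited 1 table of FPKM per stage, and per the submitters' processing notes they used CASAVA, cutadapt and TopHat with mm9. The program behind FPKM, its annotation and strand use: not given in the sources used here. Promoters come from another build, GRCm38.p6, and no coordinates were carried between builds. Each library was divided by its median-of-ratios factor, computed within its own table (0.954 to 1.12 at lactation, 0.980 to 1.02 at involution) and transformed to log2(FPKM + 1), a scale that understates the change of low genes. The filter of 1 FPKM or more in 3 or more libraries came before limma 3.58.1 (lmFit, eBayes with trend, two-sided, R 4.3.3), p-values adjusted by Benjamini-Hochberg across every gene that passed it, a threshold of 0.05 and no covariates, since the labels give no batch. The difference of effects used 1 fit of 13 libraries, with the filter in both tables. The labels name the mice but do not say how glands were sampled, so p-values measure the spread between these libraries. Relative depth came from the ratios at which values under 0.3 FPKM pile up; after correction 70.9% of 27125 pairs at lactation and 69.5% of 33942 at involution lay within 0.02 (log2) of ratios of whole numbers up to 5. Steps are the largest size of which all values of a gene were multiples, within 0.15, among the smallest value above 0 divided by 1 to 5. The limma fit and the depth estimate were tested on simulated data, and the search for steps was not. Named genes were the 8 members, at most 3 genes with the smallest p in each list, genes past the threshold, the 5 most like Socs3, Cish and Socs2, and Jak1; Il6st, Prlr, Akt1 and Tceb2, the zeros of milk protein genes and the counts of marker genes were chosen after the values were seen. The members and lists were chosen with earlier results of these data known.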

Additional observations from a re-analysis of the deposited data

How the results depend on the processing

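No member passed the threshold with limma in any alternative of the 3 comparisons, so the count of members called stayed at 0. Socs1, Socs3, Socs4 and Socs5 kept their sign at involution, Socs2, Socs4 and Socs6 at lactation, and Socs2, Socs4, Socs5 and Socs6 in the difference of effects, over the 14, 12 and 21 alternatives run. The other signs turned. At involution Socs2 was -0.007 with FPKM as deposited and -0.15 with array weights, and -0.32 to 0.40 with 1 library left out; Cish was 0.056 with array weights and -0.29 to 0.080 with 1 left out, Socs6 -0.014 to 0.10 and Socs7 -0.080 to 0.042. At lactation quantile normalization gave Socs5 -0.025 and Socs7 -0.032, array weights Socs7 -0.066, and scaling outside milk proteins Cish 0.0084, against -0.52 with array weights; with 1 library left out, Socs5 was -0.0088 to 0.13, Socs7 -0.15 to 0.14 and Cish -0.34 to 0.12. In the difference of effects scaling outside milk proteins gave Cish -0.11 and array weights Socs7 0.072, while Cish moved to 0.59 with array weights and 0.62 with the mouse number as replicate block, beside 0.05; with 1 library left out, Cish was -0.24 to 0.26 and Socs7 -0.16 to 0.13. Over all genes, the number called at involution (9) was 20 with array weights, 1 without genes listed at 0 in a whole group (added after the data were seen) and 2 to 9 with 1 library left out (2 without Con M44448 or M43768, 3 without Con M43914). Csn1s2a, Mir7036b, Mir1905 and Cdk8 are listed at 0 in all KO glands, so without any 1 Con gland they miss the filter. The lower counts without a Con gland are thus partly set by the filter. Their loss also bears on the adjusted p of Socs3, Orm2 and Spp1 there. At lactation (1) the number called was 2 with a pseudocount of 0.1, 2 with scaling outside milk proteins, 9 with array weights and 0 to 3 with 1 library left out. In the difference of effects (4) it was 10 with no filter, 9 with no filter and a pseudocount of 0.1, 8 with array weights and 2 to 4 with 1 library left out. Since M43768 and M43767 stand at both stages, this fit was also run with the mouse number as replicate block (consensus correlation 0.768), which called 14 genes and no member; within a stage no paired analysis was possible because KO and Con share no number. Depth limits Socs1 at both stages and Socs3 at lactation, whose values rest on at most 34 steps per library.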
